A study of Mus musculus with 6 samples.

Results

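The CDK inhibitors and the retinoblastoma family were followed in melanocyte stem cells, from which the pigment cells of each new hair arise. The 10 genes were chosen by name: the CIP/KIP inhibitors Cdkn1a (p21), Cdkn1b (p27) and Cdkn1c (p57), the INK4 inhibitors Cdkn2a (p16 and p19ARF), Cdkn2b (p15), Cdkn2c (p18) and Cdkn2d (p19), and the pocket proteins Rb1, Rbl1 (p107) and Rbl2 (p130). Every non-control probe whose RefSeq accession maps to one of them was taken, which gave 14 of the 55681 probes on the arrays. All 10 genes had a probe, out of 21368 genes with a named probe. The series compared GFP-positive cells of low side scatter, sorted from the skin of male K14-SCF Tg mice and of male WT mice, with 3 arrays for each genotype and 1 sample on each array. The transgene places stem cell factor, which activates the receptor KIT, under the keratin 14 promoter of keratinocytes. Whether it is expressed only outside the sorted cells was not examined here. The GFP that marks the sorted cells is common to both genotypes, and the labels name neither its driver nor the age or strain of the mice. Nor do they tie the numbered replicates to separate animals, and p-values here measure the spread between samples alone, which may be technical.

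A cell enters the division cycle when cyclin-dependent kinases phosphorylate the pocket proteins and release E2F transcription factors. INK4 proteins block the D-cyclin kinases CDK4 and CDK6, and CIP/KIP proteins bind a wider range of cyclin-kinase complexes. In the pigment lineage these genes are known for growth arrest and for the senescence of naevus cells, and loss of CDKN2A is a known inherited risk for human melanoma.

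A level is the log2 ratio of a probe's processed signal to the 75th percentile of its array, so that a probe at this percentile has a level of 0, and a log2 fold change is K14-SCF Tg minus WT. Levels of different probes are not comparable with each other. Between 78.4% (WT replicate 3) and 87.1% (Tg replicate 2) of all probes on each array exceeded background, and saturation did not occur (0 spots). Of 14 listed melanocyte lineage markers, 13 had a probe and 12 were tested. All 12 were above background on all 6 arrays, Mitf, Tyr, Dct, Pmel and Kit among them. So were 41010 of all 47709 tested probes, and this count alone does not identify the cells. Markers of other skin cells were also measured: 13 of 13 leukocyte markers, 11 of 14 keratinocyte markers and 10 of 14 fibroblast markers were above background on every array. The summed level of the 14 fibroblast markers was 23.5, 12.1 and 11.5 times the 75th percentile on Tg replicates 1 to 3, against 74.8, 49.6 and 29.4 times on WT replicates 1 to 3, with no overlap between the genotypes. For leukocyte markers the sum was 179 to 194 times on the Tg arrays and 154 to 208 times on the WT arrays. For keratinocyte markers it was 134 to 145 times on the Tg arrays and 117 to 147 times on the WT arrays. Both sums overlapped between the genotypes, and sums of different lists are not comparable with each other. A sum is weighted to its brightest probes and need not follow each marker. The keratinocyte marker Krt14 had log2 levels of 2.52, 0.51 and 2.12 on the Tg arrays, against 0.60, 3.28 and 0.86 on the WT arrays. Krt5 lay between -0.39 and 0.69 over the 6 arrays. Fewer cells of a type and less RNA per cell cannot be told apart in sorted bulk samples.

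The promoters of the members on which the results turn are shown first, because Cdkn2b had the largest difference, the probes of Cdkn1a are assigned to different transcript forms of the gene, and Rbl1 is a textbook E2F target. They come from RefSeq, build GRCm38.p6, whereas the arrays were designed on mm9, and each runs from 250 bases before to 50 bases after a transcript start. Of the 10 genes, 8 had an entry in this table, all but Cdkn1c and Rb1. Cdkn1a has 2 such starts, 2790 bases apart. Which of them belongs to which transcript record is not given by the sequence table. Capitals mark matches, on either strand, to the GC box GGGCGG, the E2F-type letters TTTNNCGC, the TATA box TATAAA and the p53 half-site.
Cdkn2b, chr4:89310983-89311282, minus strand: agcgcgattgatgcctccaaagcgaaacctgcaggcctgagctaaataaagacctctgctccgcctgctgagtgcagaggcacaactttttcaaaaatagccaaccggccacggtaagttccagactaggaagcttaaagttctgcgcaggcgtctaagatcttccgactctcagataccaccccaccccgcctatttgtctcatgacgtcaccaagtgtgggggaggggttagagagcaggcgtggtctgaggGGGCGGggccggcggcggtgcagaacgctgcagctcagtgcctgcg
Cdkn1a, upstream start, chr17:29090729-29091028, plus strand: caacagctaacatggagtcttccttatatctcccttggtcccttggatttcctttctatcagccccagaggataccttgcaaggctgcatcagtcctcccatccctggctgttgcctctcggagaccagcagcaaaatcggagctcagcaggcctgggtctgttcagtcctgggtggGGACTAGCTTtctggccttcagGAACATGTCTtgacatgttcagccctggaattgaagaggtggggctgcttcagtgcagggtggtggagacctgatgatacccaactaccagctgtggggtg
Cdkn1a, downstream start, chr17:29093519-29093818, plus strand: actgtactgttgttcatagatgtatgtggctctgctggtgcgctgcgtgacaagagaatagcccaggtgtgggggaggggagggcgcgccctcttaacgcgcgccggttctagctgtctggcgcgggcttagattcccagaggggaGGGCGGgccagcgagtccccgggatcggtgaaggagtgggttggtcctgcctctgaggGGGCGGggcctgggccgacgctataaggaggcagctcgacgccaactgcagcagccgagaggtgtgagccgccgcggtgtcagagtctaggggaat
Rbl1, chr2:157204485-157204784, minus strand: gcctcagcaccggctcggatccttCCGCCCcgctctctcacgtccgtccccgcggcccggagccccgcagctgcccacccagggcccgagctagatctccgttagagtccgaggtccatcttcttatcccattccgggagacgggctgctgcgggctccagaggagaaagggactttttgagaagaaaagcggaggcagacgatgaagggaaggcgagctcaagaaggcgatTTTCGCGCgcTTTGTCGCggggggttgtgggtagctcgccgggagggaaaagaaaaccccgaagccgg
The Cdkn2b promoter held 1 GC box and none of the other motifs. The upstream Cdkn1a start held 2 p53 half-sites, at positions -73 and -51 from the start, and no GC box, while the downstream start held 2 GC boxes and no p53 half-site. Rbl1 held 2 E2F-type matches side by side, at -18 and -8, and 1 GC box. Of 32851 promoters of the same length in the table, 35.7% held the GC box, 5.17% the E2F-type letters, 8.36% the p53 half-site and 13.6% the TATA box. A match describes these letters only.

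Of the 14 probes, 13 passed the filter on dim probes (well above background on 3 or more arrays) and entered the test across all probes. The exception was 1 of the Cdkn2a probes. By limma, adjusted by Benjamini and Hochberg across the 47709 tested probes, 0 of the 13 passed an adjusted p of 0.05 (smallest adjusted p = 0.488), where 0.0021% of all tested probes passed. At an unadjusted p under 0.05 there was 1 member probe, for Cdkn2b, where 5.46% of all tested probes met that limit. The same probe was the 1 member without overlap between the genotypes, against 10.3% of all tested probes. A count of 1 in 13 is close to these shares. That probe met the filter through the Tg arrays, where it is high, and with the filter on all 6 arrays the count was 0 of 10. The count was 2 of 13 with replicate number as a block and with slide row as a covariate. It was also 2 of 13 without WT replicate 2, WT replicate 3 or any 1 of the Tg arrays. Taking each gene by its brightest tested probe, 4 of the 10 log2 fold changes were positive and 6 negative, with a median of -0.20, beside a median of -0.01 over all 18368 genes tested.

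**Figure D1:**
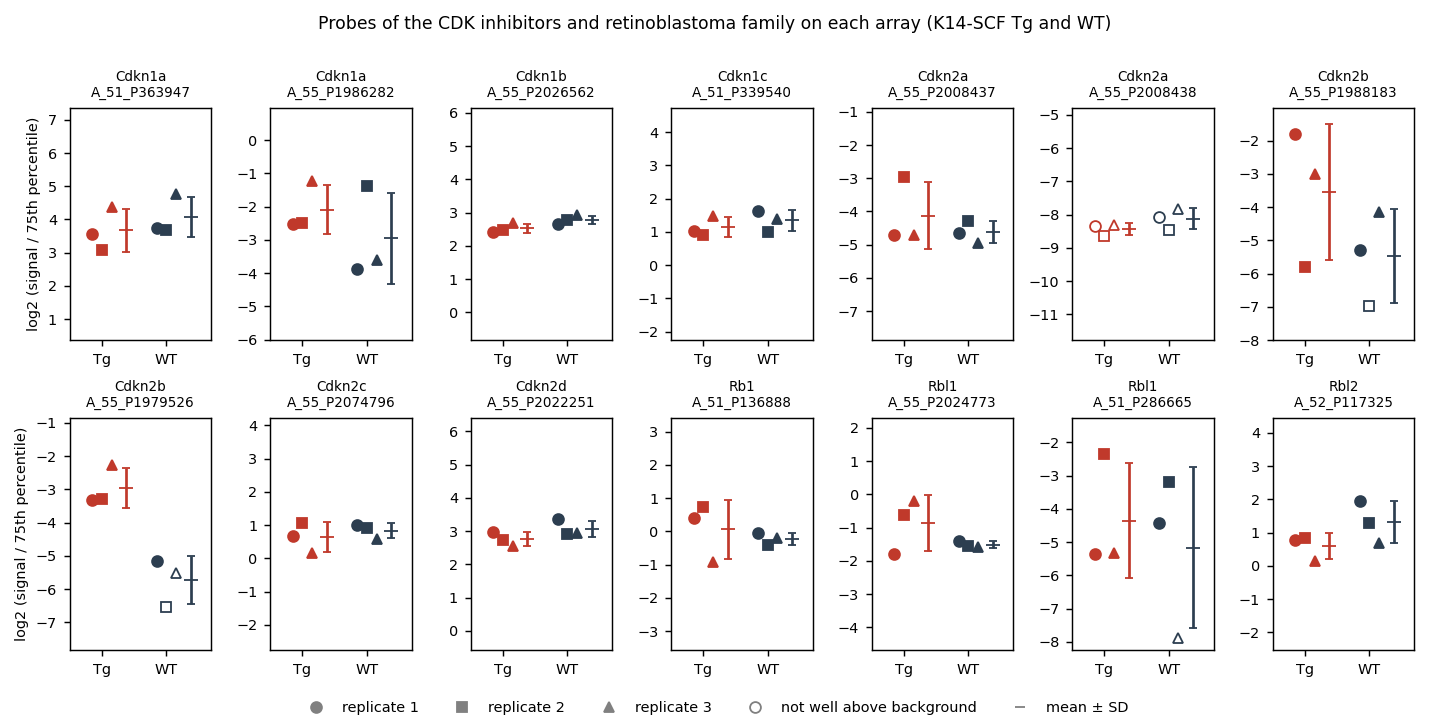
Level of each of the 14 probes on each array, as the log2 ratio of signal to the array's 75th percentile, for K14-SCF Tg (red, left) and WT (dark, right). Marker shapes give the replicate number, open markers are not well above background, bars are mean ± SD over 3 arrays, and every panel spans the same number of log2 units. The Cdkn2b probe A_55_P1979526 is the 1 panel among the tested probes without overlap.

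Cdkn1a encodes p21, the inhibitor that p53 induces after DNA damage. Its probe A_51_P363947, assigned to the transcript record NM_007669, stood at 3.56, 3.09 and 4.37 on Tg replicates 1 to 3, against 3.75, 3.69 and 4.76 on WT replicates 1 to 3. In both genotypes replicate 3 was the highest, and the genotypes overlapped. The means were 3.67 ± 0.65 in Tg and 4.07 ± 0.60 in WT (SD, n = 3 each), a log2 fold change of -0.40 (SE 0.46, 95% interval -1.53 to 0.74), which was -0.74 without Tg replicate 3 and -0.049 without WT replicate 3. The other probe, A_55_P1986282, is assigned to the record NM_001111099, the second transcript form. It stood at -2.53, -2.48 and -1.24 on the Tg arrays, against -3.86, -1.38 and -3.61 on the WT arrays. Here WT replicate 2 lay well above the other WT arrays and within the range of the Tg arrays. The log2 fold change at this probe was 0.86 with an SE of 0.76 (interval -1.01 to 2.73). Without WT replicate 2 it was 1.65 (SE 0.49, limma adjusted p = 0.681), without WT replicate 1 it was 0.41, and without both arrays of slide row 2 it was 0.11. The 2 probes had opposite signs and neither passed, and the mean of both gave 0.23 in place of -0.40. Whether either probe is specific to its transcript form was not tested.

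Cdkn1b encodes p27, which holds cyclin E and cyclin A complexes with CDK2 inactive in resting cells. It had the smallest spread of the tested members: 2.43, 2.48 and 2.68 on the Tg arrays, against 2.67, 2.78 and 2.92 on the WT arrays. Tg replicate 3 just exceeded WT replicate 1, and otherwise every Tg array was below every WT array. The log2 fold change was -0.26 with an SE of 0.21, and the 95% interval of the ratio of Tg to WT was 0.581 to 1.20. Cdkn1c encodes p57, an imprinted inhibitor. It stood at 1.03, 0.90 and 1.49 on the Tg arrays, against 1.63, 1.01 and 1.39 on the WT arrays, with the genotypes interleaved. Its log2 fold change was -0.20 with an SE of 0.29 (interval -0.91 to 0.50), or a ratio between 0.533 and 1.41. None of the 3 CIP/KIP genes passed (limma, adjusted p between 0.981 and 0.990 for the brightest probe of each).

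Cdkn2b encodes p15, an inhibitor of CDK4 and CDK6 that TGF-beta is known to induce in epithelial cells, and it had the largest difference of the members. At the probe A_55_P1979526 it stood at -3.32, -3.30 and -2.25 on Tg replicates 1 to 3, against -5.14, -6.53 and -5.52 on WT replicates 1 to 3. All 3 Tg arrays were above all 3 WT arrays. The means were -2.96 ± 0.61 in Tg and -5.73 ± 0.72 in WT (SD, n = 3 each). The signal was weak: the probe was well above background on 3 of 3 Tg arrays and on 1 of 3 WT arrays, WT replicate 1, so it met the filter through the Tg arrays, and any size given for the difference rests on WT signals that were mostly not above background. On these signals the log2 fold change was 2.77 with an SE of 0.49 (interval 1.57 to 3.97), and it did not pass (limma, adjusted p = 0.488). With normexp on median signals and quantile normalization in place of the processed signals, the log2 fold change was 1.32 (SE 0.25, limma adjusted p = 0.540).

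The other Cdkn2b probe, A_55_P1988183, stood at -1.81, -5.80 and -3.00 on the Tg arrays, against -5.29, -6.97 and -4.16 on the WT arrays. It is assigned to the same transcript record. Tg replicate 2 was below WT replicates 1 and 3, so the genotypes overlapped here, and 2 of 3 WT arrays were above background. Its log2 fold change was 1.94 with an SE of 1.20 and an interval that includes 0 (limma, adjusted p = 0.957). This value was 3.07 (SE 0.92) without Tg replicate 2, 1.07 without Tg replicate 1 and 1.19 without WT replicate 2, and normexp with quantile normalization gave 1.00. Both probes had a positive sign. Of the 6 arrays, WT replicate 1 alone came from another slide, with a scan of its own. Among the other 5 arrays, all on 1 slide, the values were 3.06 (SE 0.52, limma adjusted p = 0.545) for A_55_P1979526 and 2.03 (SE 1.48) for A_55_P1988183. A fit with slide as a block gives the same values. Both genotypes also span both rows of that slide, and with the row as a covariate A_55_P1979526 stood at 2.77 (SE 0.44, limma adjusted p = 0.573). The fibroblast markers, whose summed levels are given above, also separated the genotypes, in the opposite direction (11 of 14 markers negative, median log2 fold change -1.44, limma adjusted p of 0.563 or more), and their part in the Cdkn2b difference was not tested.

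The genes most like Cdkn2b over the 6 arrays were found by the root mean square difference between centred log2 levels, among 24215 named probes. They were Gpr137c (0.306), Noxred1 (0.354) and Ifih1 (0.356), and on the same measure the other Cdkn2b probe lay 1.35 away. Gpr137c, like Cdkn2b itself, was above background on 1 of 3 WT arrays. Ifih1 encodes a sensor of double-stranded RNA. It stood at -2.97, -2.44 and -2.06 on the Tg arrays, against -4.17, -5.31 and -4.66 on the WT arrays, above background on all 6. None of these 3 passed (limma, adjusted p = 0.578 for Gpr137c, 0.416 for Noxred1 and 0.503 for Ifih1). The search started from the probe A_55_P1979526, so genes close to it share its difference between the genotypes by choice. This likeness rests on 6 arrays and is a description.

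Cdkn2a lies beside Cdkn2b on chromosome 4 and encodes both the CDK4 inhibitor p16 and, in another reading frame, p19ARF, which stabilises p53. Both of its probes carry the accession of the p19ARF form, and neither carries that of the p16 form. Whether either probe is specific to the p19ARF form was not tested. The probe A_55_P2008437 stood at -4.72, -2.95 and -4.70 on the Tg arrays, against -4.64, -4.28 and -4.95 on the WT arrays. It was above background on all 6 arrays, with 1 array, Tg replicate 2, set apart from the rest. The log2 fold change of 0.50 (SE 0.54, interval -0.84 to 1.83) turned to -0.087 without that array. The probe A_55_P2008438 was not well above background on any of the 6 arrays, and no fold is given for it. It read -8.33, -8.65 and -8.31 on the Tg arrays and -8.08, -8.46 and -7.83 on the WT arrays. A difference in Cdkn2a was thus not measurable at this probe and was smaller than the spread between arrays at the other.

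Cdkn2c and Cdkn2d encode p18 and p19 (INK4d), INK4 proteins with known roles in normal development. Cdkn2c stood at 0.66, 1.07 and 0.17 on the Tg arrays, against 1.00, 0.90 and 0.58 on the WT arrays. Both the highest and the lowest array were Tg. Its log2 fold change was -0.19 (SE 0.31, interval -0.95 to 0.57) and was 0.041 without Tg replicate 3. Cdkn2d stood at 2.97, 2.74 and 2.56 on the Tg arrays, against 3.35, 2.92 and 2.95 on the WT arrays. Tg replicate 1 lay just above 2 of the WT arrays and the other Tg arrays below all of them. The log2 fold change of Cdkn2d was -0.32 (SE 0.25, interval -0.93 to 0.29), a ratio between 0.526 and 1.22. Neither passed (limma, adjusted p = 0.994 for Cdkn2c and 0.976 for Cdkn2d).

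**Figure D2:**
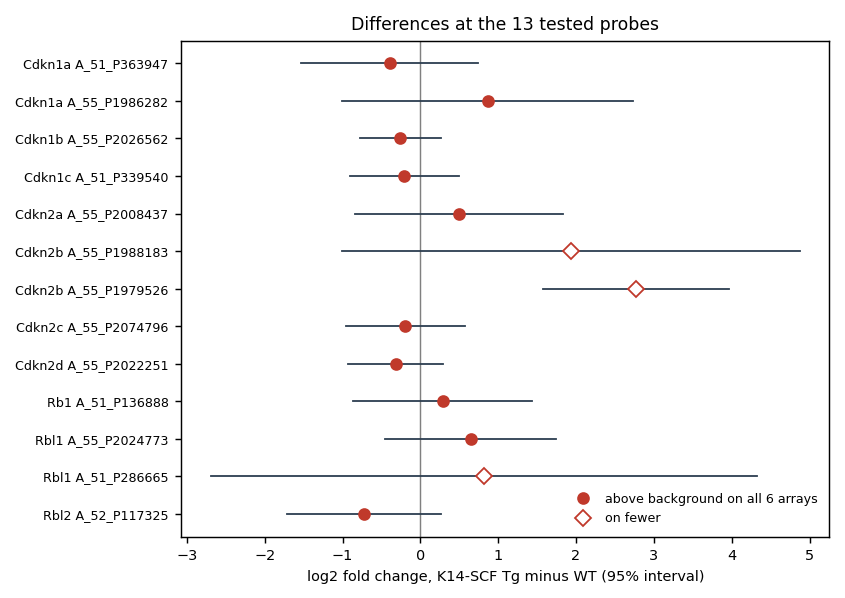
Log2 fold change (K14-SCF Tg minus WT) of each of the 13 tested probes with its 95% interval from limma. Filled circles are probes above background on all 6 arrays and open diamonds those above it on fewer. The interval of the Cdkn2b probe A_55_P1979526, 1.57 to 3.97, is the 1 that does not reach 0, at a probe above background on 3 of 3 Tg arrays and 1 of 3 WT arrays; these intervals are not adjusted for the number of probes.

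Rb1 encodes the retinoblastoma protein, the pocket protein that binds the activating E2F factors. It stood at 0.39, 0.73 and -0.93 on the Tg arrays, against -0.06, -0.41 and -0.19 on the WT arrays. The WT arrays lay close together between the Tg arrays, of which replicates 1 and 2 were the highest of all and replicate 3 the lowest. The SD was 0.88 in Tg and 0.17 in WT, and the log2 fold change was 0.28 (SE 0.47, interval -0.87 to 1.44), or -0.050 without Tg replicate 2. Rbl1 encodes p107, whose amount is known to follow the cell cycle, and its promoter with 2 E2F-type matches is shown above. At the probe A_55_P2024773 it stood at -1.81, -0.62 and -0.19 on the Tg arrays, against -1.40, -1.56 and -1.60 on the WT arrays. Tg replicates 2 and 3 were above every WT array and Tg replicate 1 below them all. The SD was 0.84 in Tg and 0.10 in WT, with a log2 fold change of 0.65 (SE 0.45, interval -0.45 to 1.74). Without Tg replicate 1 it was 1.11 (SE 0.29, limma adjusted p = 0.857), without Tg replicate 3 it was 0.31, and without both arrays of slide row 2 it was 0.27.

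The other Rbl1 probe, A_51_P286665, assigned to another transcript form, stood at -5.36, -2.35 and -5.33 on the Tg arrays, against -4.42, -3.19 and -7.88 on the WT arrays. WT replicate 3 was not above background, and both genotypes spread over several log2 units. The log2 fold change of 0.81 (SE 1.43) was -0.54 without WT replicate 3, -0.18 without Tg replicate 2 and -0.050 without both arrays of slide row 2. Rbl2 encodes p130, the pocket protein of resting cells, which joins the MuvB core in the DREAM repressor complex. It stood at 0.79, 0.85 and 0.15 on the Tg arrays, against 1.97, 1.30 and 0.70 on the WT arrays. The genotypes overlapped only through WT replicate 3, which lay below Tg replicates 1 and 2. The means were 0.59 ± 0.39 in Tg and 1.32 ± 0.63 in WT (SD, n = 3 each), a log2 fold change of -0.73 (SE 0.40, interval -1.72 to 0.26). It was -0.41 without WT replicate 1, the array of the other slide, and -1.04 (SE 0.37) without WT replicate 3. With slide row as a covariate it stayed at -0.73, with an SE of 0.26 (limma, adjusted p = 0.728). None of the pocket proteins passed (limma, adjusted p between 0.946 and 0.994 for the brightest probe of each).

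Repeated spots, where a member probe has them, show how much of this spread lies within an array. The Rb1 probe and the brighter Cdkn1a probe are printed 10 times on each array. Across those spots the SD of Cdkn1a was between 0.043 and 0.072 by array, against an SD between arrays of 0.65 in Tg and 0.60 in WT. For Rb1 the SD across spots was between 0.047 and 0.088, against 0.88 in Tg and 0.17 in WT between arrays. Every other member probe has 1 spot, the dim Cdkn2b, Cdkn2a and Rbl1 probes included, so its spread within an array was not measured. This Cdkn1a probe and the Cdkn1b probe are among the brightest 25% of tested probes. In this class, 87.8% had a smaller spread within genotypes than Cdkn1a, and 11.4% a smaller one than Cdkn1b.

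**Figure D3:**
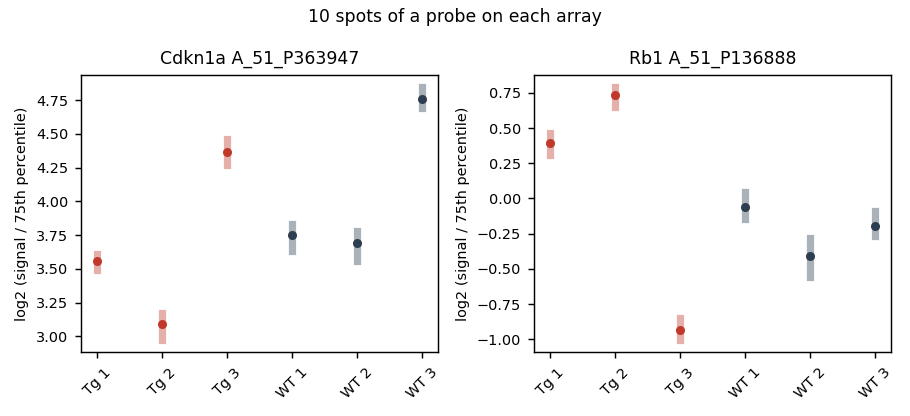
Levels of the 10 spots of the Cdkn1a probe A_51_P363947 and of the Rb1 probe A_51_P136888 on each array, as the log2 ratio of signal to the array's 75th percentile. Thick bars run from the lowest to the highest spot and points are the array's value; the 3 Tg arrays (red) stand left of the 3 WT arrays (dark). The bars of some arrays overlap, such as those of WT replicates 1 and 2 for Cdkn1a and of WT replicates 1 and 3 for Rb1. Others lie far apart, such as those of Tg replicates 2 and 3 for both probes.

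The third replicate of each genotype lay in row 2 of the slide and stood apart at several members. Cdkn1a (A_51_P363947) was 1.05 higher on Tg replicate 3 than the mean of Tg replicates 1 and 2, and 1.04 higher on WT replicate 3 than the mean of WT replicates 1 and 2. Rbl2 was lower there in both genotypes, by -0.67 in Tg and by -0.94 in WT. In all, 2 of the 13 tested member probes (Cdkn1a and Cdkn1b) were highest on replicate 3 in both genotypes, where 8953 of all 47709 tested probes (18.8%) were. Another 2 (Cdkn2c and Rbl2) were lowest there in both, where 6680 of all tested probes were. Both counts are close to the shares of all probes. Slide row and replicate number cannot be told apart for these arrays.

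The genes around the inhibitors were read from 9 pathway lists, of which 136 of 140 genes were tested. By limma 0 of the 136 were higher and 0 lower at an adjusted p of 0.05, where 0.00544% of all genes passed. At an unadjusted p under 0.05 there were 2 higher and 1 lower, 2.21% of the lists' genes, where 5.41% of all genes met that limit. This count of 3 was 8 without WT replicate 2, 5 without WT replicate 1 and 6 with slide row as a covariate. The genotypes did not overlap in 12 of the 136, where they did not in 10.5% of all genes. The medians of the lists lay between -0.20 and -0.0033, beside -0.01 for all genes. Over all 18368 genes tested, 8928 log2 fold changes were positive and 9440 negative. Counts of signs depend on the scaling: 51.7% of all tested probes were higher in Tg here, and 42.8% with median centring. All values that follow are log2 fold changes of genes that did not pass.

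Among the cyclins and their kinases, the targets of the inhibitors, 18 genes were tested (7 positive, 11 negative). Cdk4 stood at -0.28 (SE 0.40), with 0.09 and -0.39 at its other tested probes. Cdk2 stood at 0.02 (SE 0.29) and Ccnd1, the cyclin D1 gene, at -0.97 (SE 1.19). No value is given for Cdk6. The phosphatase gene Cdc25a, which activates CDK2, had the smallest p of the list, at -1.11 (SE 0.52). Of the 10 E2F and DP genes (3 positive, 7 negative), E2f1 stood at -0.27 (SE 0.34), while E2f8 at -2.53 (SE 1.11) was above background on 1 of 3 Tg arrays. The 25 replication genes that E2F factors drive (12 positive, 13 negative) had a median of -0.02. Rrm1, a subunit of ribonucleotide reductase, had the smallest p of these: 0.52, 0.76 and 0.42 on the Tg arrays, against 0.83, 1.11 and 1.36 on the WT arrays, without overlap (log2 fold change -0.54, SE 0.25). The 9 genes of the MuvB core and its partners had a median of -0.0033, and the proliferation marker Mki67 stood at -0.94 (SE 0.48), with -0.01 at its other probe.

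Of 12 corepressors that pocket proteins recruit (3 positive, 9 negative), Dnmt1, the maintenance DNA methyltransferase, had the smallest p of all the lists. It stood at 1.45, 1.07 and 0.88 on the Tg arrays, against -0.21, 0.36 and -0.87 on the WT arrays, without overlap. Its log2 fold change was 1.37 with an SE of 0.38 (limma, adjusted p = 0.705). Upstream of Cdkn1a, 12 genes of the p53 pathway (3 positive, 9 negative) had a median of -0.17, with Trp53 at -0.41 (SE 0.44) and Mdm2 at 0.07 (SE 0.25). Upstream of Cdkn2b and Cdkn1b, 16 genes of TGF-beta, MYC and FOXO signalling (7 positive, 9 negative) had a median of -0.03. Smad3, which carries the TGF-beta signal to the nucleus, stood at -0.83, -0.59 and -1.80 on the Tg arrays, against -0.39, -0.05 and -0.22 on the WT arrays, without overlap (log2 fold change -0.85, SE 0.37, with -0.36 at its other probe). Myc, a repressor of Cdkn2b, stood at -0.05 (SE 0.26).

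The 12 tested genes of the list of ubiquitin ligase parts around p21, p27 and p57 (5 positive, 7 negative) had a median of -0.08. Skp2, the receptor that delivers p27 for degradation, stood at -1.24, -1.23 and -1.38 on the Tg arrays, against -1.54, -2.84 and -2.88 on the WT arrays. All Tg arrays were above all WT arrays, with a log2 fold change of 1.14 (SE 0.41, limma adjusted p = 0.881). Of the 22 tested regulators of the Cdkn2a and Cdkn2b locus (7 positive, 15 negative), Ezh2, the histone methyltransferase of Polycomb repressive complex 2 that represses it, stood at -1.15, -1.24 and -1.25 on the Tg arrays, against -0.76, -0.72 and -0.25 on the WT arrays. The genotypes did not overlap for Ezh2, and its log2 fold change was -0.64 (SE 0.24, limma adjusted p = 0.888). Bmi1 of Polycomb repressive complex 1 stood at 0.06 (SE 0.40), with -1.25 at its other probe.

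**Figure D4:**
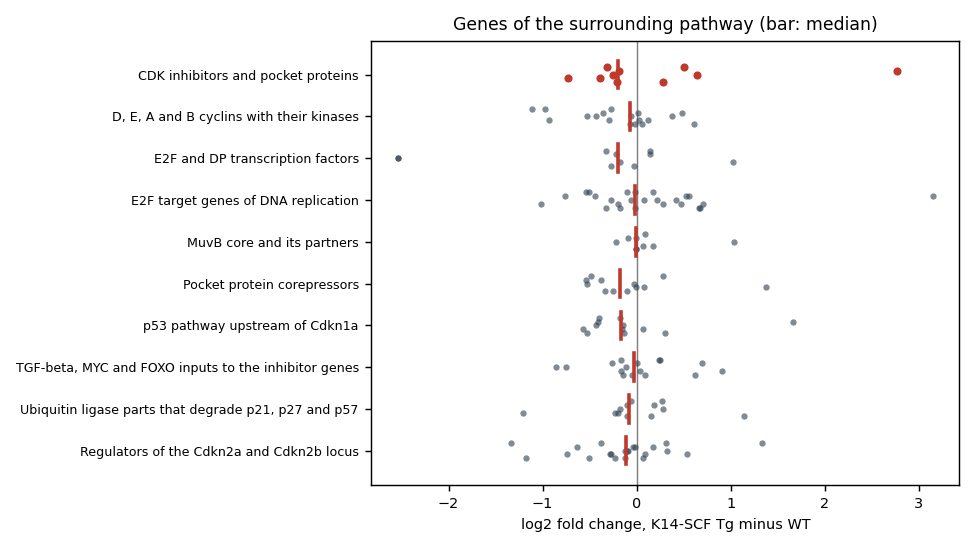
Log2 fold change (K14-SCF Tg minus WT) of each tested gene of the 9 pathway lists and of the 10 members (top, red), each gene by its brightest tested probe. Red bars are medians; those of the 9 lists lie between -0.20 and -0.0033, and 0 of the genes shown passed an adjusted p of 0.05.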

How the data were processed

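Per the file headers, Agilent Feature Extraction 10.7.1.1 read the 6 arrays, which have 1 colour (Cy3). Processed signals are intensity values that the software had corrected for background and detrended, per the file headers; median spot and local background intensities served an alternative. Other columns are flags of 0 or 1, taken as deposited. The authors' deposited value table is a linear ratio: each column equals the processed signal over 1 constant, 0.995 to 0.996 times the array's 75th percentile (over 99.7% of values within 0.001). No sequence of a probe was used. Control and outlier spots were left out, spots of a probe were averaged, and log2 of the signal over the array's 75th percentile was taken. Of 55681 probes, 47709 were well above background (on 50% or more of a probe's spots) on 3 or more arrays and were tested by limma 3.58.1 in R 4.3.3 (lmFit, eBayes, no covariates, 2-sided, threshold 0.05); the script was tested on simulated data. Of 29786 probes with a RefSeq accession, 28331 were named through a RefSeq table of GRCm38.p6. A gene of a list is represented by its brightest tested probe. The number of arrays limits the precision. All member probes are given; list genes are named by the smallest p or by a fixed short list, and not every one is printed. The members and lists were chosen with earlier results of these data known.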

Additional observations from a re-analysis of the deposited data

How the results depend on the processing

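No member probe and no pathway gene passed under any alternative run: quantile normalization, median centring, the deposited values, normexp with quantile normalization, no filter or a filter on all 6 arrays, the replicate block, slide as a block, slide row as a covariate, without slide row 2, trended and robust variance, the mean of a gene's probes, and leaving out each array (smallest member adjusted p = 0.485). Over all tested probes the count of 1 went to 0 with normexp, the filter on all 6 arrays, the replicate block, slide as a block, slide row as a covariate, without slide row 2, trended and robust variance, and without any 1 array (0 to 0). The member fold changes changed sign in 7 cases; the filters, the replicate block, slide row as a covariate and the variance model leave them as they are by construction, and slide as a block repeats the fit without WT replicate 1. These were Cdkn1a with the mean of its probes (0.23) and Rbl1 A_51_P286665 without slide row 2 (-0.050) and, leaving out 1 array, in the range -0.54 to 1.80. The others came from leaving out 1 array at Rb1 (-0.050 to 0.78), Cdkn2a A_55_P2008437 (-0.087 to 0.80) and Cdkn2c (-0.41 to 0.041). The cause of these changes was not tested. Leaving out 1 array also moved Cdkn1c (-0.38 to -0.060) and Cdkn2d (-0.43 to -0.18). Cdkn2b A_55_P1979526 lay between 1.32 and 3.06 under all alternatives that tested it; the filter on all 6 arrays removed it. Samples of the same replicate number deviated together with correlations of 0.019, 0.052 and 0.131 over tested probes, so the numbers were not taken as pairs; with the replicate block Cdkn2b A_55_P1979526 stood at 2.77 (SE 0.41, limma adjusted p = 0.726). Signals near background limit Cdkn2b, Cdkn2a and the dimmer Rbl1 probe.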
